A study of Mus musculus with 2 samples.

Results

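The receptors described here are those through which neurons answer glutamate, the main excitatory transmitter of the brain, and GABA, the main inhibitory transmitter of the adult brain. They comprised 35 genes, listed by family name as AMPA, kainate, NMDA, delta and metabotropic glutamate receptor subunits and of GABA-A and GABA-B subunits. Every probe set that names exactly 1 gene in the platform annotation was used, which gave 73 probe sets for 32 of the 35 genes, out of 18193 genes named on the array. No probe set is named for Grin1, Grm6 or Gabbr2 in the annotation used here, so these 3 genes have no value. The list does not hold every subunit of each family.

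AMPA, kainate and NMDA receptors are cation channels built of several subunits that open when glutamate binds, and the metabotropic receptors act through G proteins. GABA-A receptors are chloride channels assembled from several subunits, and GABA-B receptors couple to G proteins. In the developing cortex these receptors are present before most synapses have formed, and their subunit makeup is known to shift from fetal to adult forms. The Sox11 protein binds DNA, belongs to the SoxC group and is abundant in newborn neurons.

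Each genotype was represented by 1 array. The cortices of 1 wild-type mouse embryo (Sox11(+/+)) and 1 Sox11(-/-) embryo at E17.5, late in gestation, supplied the RNA. Both came from a cross of Sox11(+/-) parents on a mixed C57BL/6 and 129 background. The genotype field of the mutant reads Sox -/- and its title Sox11(-/-), and the sources used here do not give which part of the gene the allele lacks. The labels give the tissue as cortex and name no separation of cell types. Fewer cells of a type, less RNA per cell and unequal amounts of other tissue therefore cannot be told apart. Every difference below compares 2 libraries, with no replicate check, no test and no p-value, and the precision of all values is limited by the number of arrays.

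Both libraries held strong signals of markers of tissues other than cortex, and their part in the receptor values was not tested. All 8 skeletal muscle markers were above the median signal on both arrays, with a summed signal of 109816 on the wild-type array and 109626 on the null array. The 6 epidermal markers summed to 37963 and 20420, with 4 at least 1.5-fold lower in the null library, and 3 of 5 endothelial markers were at least 1.5-fold higher. All 3 measured pituitary markers were at least 1.5-fold lower (median -1.26, summed signal of the 4 with a probe set 5631 and 2344). Of 4 measured sensory ganglion markers (median -0.34) Avil was lower, at 264 and 141 (-0.88). Of 6 striatal markers (median -0.10) Drd1 was higher, at 76.8 and 187 (1.30). Avil reached the array median in wild type alone, and Drd1 in the null library alone. Of the cortical excitatory neuron markers, 5 of the 7 with a probe set were above the median on both arrays (summed signal 7735 and 7142), and all 8 interneuron markers were (7145 and 7205). The vesicular glutamate transporter gene Slc17a7 was below it on both (118 and 124). Of the hindbrain and cerebellar markers 2 of 7 were above it, and of the retinal markers 1 of 6. For beta-actin, the 3' control probe set was 1.78 times as bright as the 5' one in wild type and 1.16 times in the null library. For Gapdh these values were 0.922 and 0.816. All 6 Sox11 probe sets were lower in the null library, by log2 differences from -2.59 to -1.04. The brightest Xist probe set read 17505 on the wild-type array and 155 on the null array, and the Y-linked Eif2s3y read 0.814 and 1838. By these signals the wild-type library was from a female and the null library from a male. Sex and genotype therefore cannot be told apart in any difference below.

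Signals are linear array intensities, given for wild type first and then for the null library, with an array median of 178 on the wild-type array and 177 on the null array. A gene is called measured when its brightest probe set reached the median on at least 1 array. Of the 32 subunit genes 24 were measured, against 68.1% of all named genes, and 23 of them reached the median on both arrays. The exception was Grid1, which reached it in wild type alone. Differences are given on the log2 scale as Sox11 null minus wild type, after centring on the median of all measured genes. Signals under the 25th percentile of an array (52.9 and 52.5) were raised to it. Brightness also depends on how well a probe set binds its target, so the order of subunits by signal is not an order of transcript number. For the 23 genes with several probe sets, the brightest exceeded the dimmest by a median of 2.23 on the log2 scale in wild type.

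Of the 24 measured genes 1 was at least 1.5-fold higher in the null library and 0 were at least 1.5-fold lower. Over all 12390 measured genes those shares were 3.07% and 3.24%, so the subunit count lies near the background. At 2-fold the counts of subunits were 0 and 0, against 0.573% and 0.985% of all measured genes. The differences ran from -0.39 (Gabra2) to 0.62 (Grik5), with 12 genes above 0 and 12 below. Their quartiles were -0.24 and 0.17, against -0.17 and 0.17 over all measured genes, and 16 genes lay within 0.3 of 0. With all measured genes divided by level into 3 groups of equal size, the central 95% of differences ran from -0.94 to 0.82 (lowest), from -0.49 to 0.57 (middle) and from -0.46 to 0.45 (highest), and 23 of the 24 subunits lay inside the range of their own group. The subunit outside it was Grik5.

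**Figure D1:**
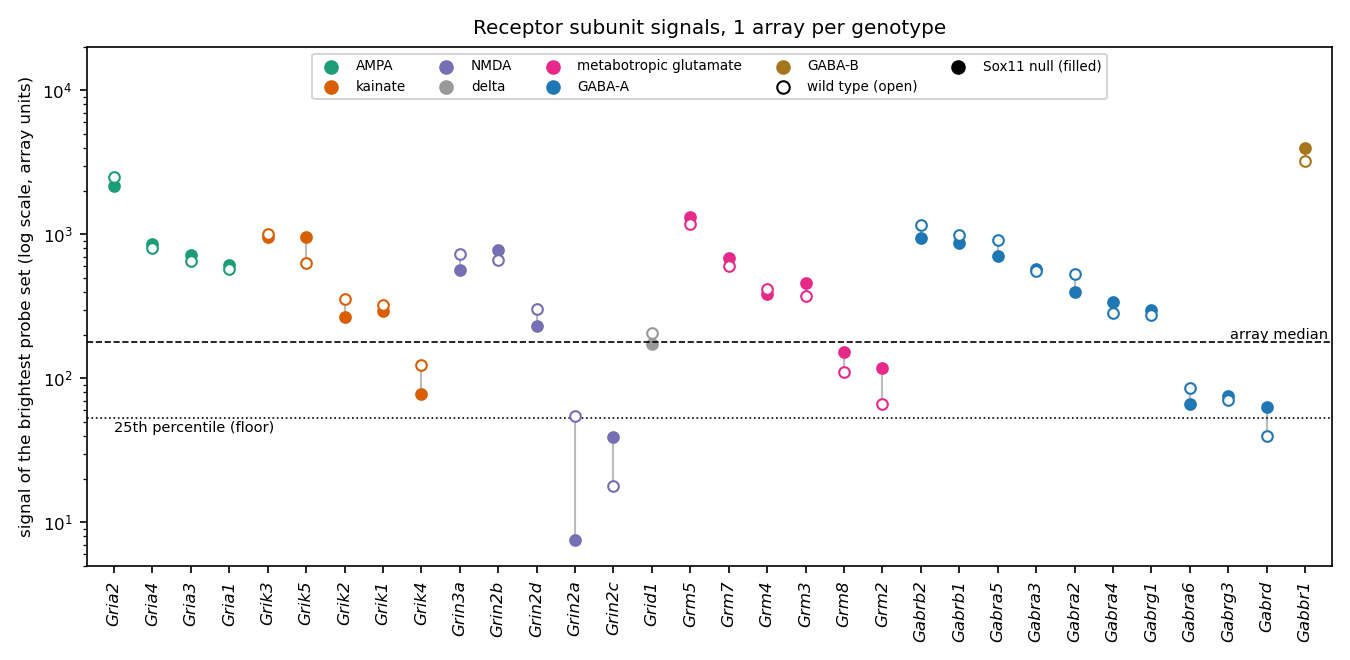
Signal of the brightest probe set of each of the 32 subunit genes (vertical axis, log scale, array units) in wild type (open) and in the Sox11-null library (filled), coloured by receptor class and ordered by wild-type signal within it. Dashed and dotted lines mark the wild-type array's median and 25th percentile, and 8 genes lie below the median on both arrays.

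AMPA receptors carry most fast excitatory transmission, and all 4 of their genes were measured. Gria2, whose edited product makes the channel nearly impermeable to calcium, had the highest signal of the class, at 2485 on the wild-type array and 2158 on the null array. Gria4 read 806 and 858, Gria3 read 658 and 722, and Gria1 read 578 and 615. This order was the same on both arrays.

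The class median difference was 0.11, and it was -0.092 with all probe sets of each gene averaged. Gria4 (0.11), Gria3 (0.15) and Gria1 (0.11) were above 0 with their brightest probe sets and Gria2 (-0.18) was below. Their probe sets did not all give 1 direction. For Gria2, 1434146_at read 2228 and 2298 (0.065), and 1453098_at read 1030 and 670 (-0.60, 1.52-fold lower). For Gria1, 1448972_at read 556 and 400 (-0.46) beside 0.11 for the brightest. Over its 3 probe sets Gria2 averaged -0.24 ± 0.34 (SD between its probe sets, which share 1 RNA), so the spread of probe sets was larger than the difference. Both measured probe sets of Gria4 were positive (0.11 and 0.20). Gria3 lies on the X chromosome, and the Xist signals of the libraries differed as given above. The part of this in its difference was not tested.

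Kainate receptors act at both sides of the synapse and tune transmitter release. Grik3 had the highest signal of this class, at 1010 on the wild-type array and 957 on the null array. It was followed by Grik5 at 628 and 952. Grik5 encodes a high-affinity subunit that forms no channel by itself and pairs with the subunits of Grik1 to Grik3. Grik5 was the only subunit gene beyond 1.5-fold, at 1.54-fold higher (log2 difference 0.62), and has 1 probe set, 1418784_at, so no second probe set bears on it. Its difference exceeded that of Grik3 (-0.059) by 0.68, a value that does not depend on centring. Grik5 was within 1.5-fold after quantile normalization (0.56), after removal of a loess trend (0.57) and, just below the size used, with all probe sets of each gene averaged (0.58).

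Grik2 read 354 and 267 (-0.39) with its brightest probe set. Its other probe set, 1425790_a_at, gave the opposite direction, at 114 and 239 (1.10), and reached the array median in the null library alone. Grik1 read 322 and 293 (-0.11), and its place and that of Grik2 were exchanged between the arrays. Grik4, the other high-affinity subunit, was below the median on both arrays at 123 and 77.8 (-0.65), and is not counted. Of the 4 measured kainate genes 3 were below 0, with a class median of -0.086. With all probe sets averaged it was 0.45, over the 2 genes measured in that setting, and with measured ones averaged 0.12. Grid1, a delta subunit that works as a synaptic organiser more than as a glutamate-gated channel, read 207 and 174 (-0.23). Its second probe set read 17.8 and 86.8, which is at the floor in wild type.

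The promoter bases of 3 subunit genes are shown because Grik5 had the largest positive difference, Grin2d the largest negative one among genes whose measured probe sets shared a direction, and Gabbr1 the highest signal. Each is the 250 bases before the RefSeq gene start (GRCm38.p6), 5′ to 3′ on the strand of the gene. Capitals mark the letters ACAAAG or ACAATG, which are core sequences bound by Sox proteins, searched on both strands.
Grik5, chr7:25072370-25072619, minus strand: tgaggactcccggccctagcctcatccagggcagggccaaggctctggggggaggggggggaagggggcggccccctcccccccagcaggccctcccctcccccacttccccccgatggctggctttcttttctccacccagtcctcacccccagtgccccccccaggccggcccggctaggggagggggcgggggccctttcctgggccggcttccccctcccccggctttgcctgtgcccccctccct
Grin2d, chr7:45866682-45866931, minus strand: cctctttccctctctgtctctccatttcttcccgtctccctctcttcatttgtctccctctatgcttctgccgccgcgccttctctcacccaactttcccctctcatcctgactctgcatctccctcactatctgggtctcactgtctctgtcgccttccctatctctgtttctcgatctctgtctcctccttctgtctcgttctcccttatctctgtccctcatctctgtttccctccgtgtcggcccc
Gabbr1, chr17:37045716-37045965, plus strand: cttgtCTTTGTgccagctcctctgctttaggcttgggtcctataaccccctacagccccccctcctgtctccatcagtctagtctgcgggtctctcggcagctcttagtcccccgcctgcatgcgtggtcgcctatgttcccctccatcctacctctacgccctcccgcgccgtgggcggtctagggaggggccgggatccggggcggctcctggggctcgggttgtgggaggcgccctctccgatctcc

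Neither sequence was found in the Grik5 and Grin2d windows, and Gabbr1 held 1 match, the reverse complement of ACAAAG, starting 245 bases before the gene start. The promoter table held 32 promoters for 25 of the 35 genes. Of these, 5 promoters (15.6%) had at least 1 match, those of Gabbr1, Gabra3, Gabrg1, Grin1 and Grm6, against 25.2% of 32851 promoters of the same length. The member windows had a median of 60.8% G and C, against 52.4% over all promoters, and the motifs are rich in A and T. A match is a description of letters and not a bound site.

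NMDA receptors need glutamate and a co-agonist and pass calcium, and Grin2b is known as their main fetal forebrain subunit and Grin2a as one that appears later. The data held Grin2b at 662 on the wild-type array and 778 on the null array. Grin2a was near or below the floor, at 54.4 and 7.59, and Grin2c, known from the cerebellum, was below it at 17.9 and 39.0, so neither has a fold. Grin3a, which lowers the calcium flow of the receptors that contain it, read 726 and 566. Grin2d, known from interneurons and the early brain, read 303 and 230. Grin3a was the brightest of the class in wild type and Grin2b in the null library.

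With 3 genes measured, Grin3a (-0.34) and Grin2d (-0.38) were lower and Grin2b (0.25) was higher in the null library, each within 1.5-fold. Both Grin2d probe sets gave the same direction. The second, 1421393_at, read 220 and 145 (-0.58), just short of 1.5-fold, and the mean was -0.48 ± 0.15 (SD between its 2 probe sets, which share 1 RNA). For Grin3a, 1436575_at gave -0.16 and 1458378_at gave 0.28, so its probe sets differed in direction. Both measured probe sets of Grin2b were positive (0.25 and 0.10). Among its dimmer ones, 1431700_at read 75.6 and 85.5, and 1422223_at read 26.7 and 110, at the floor in wild type. With all probe sets averaged before any floor, Grin2b was at 0.62, a value that includes this floor signal. The difference of Grin2d minus that of Grin2b, which does not depend on centring, was -0.63. Grin2d is known from interneurons, and the interneuron markers, which do not include it, had a median difference of -0.023 over 8 measured genes. Their part in the Grin2d difference was not tested.

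**Figure D2:**
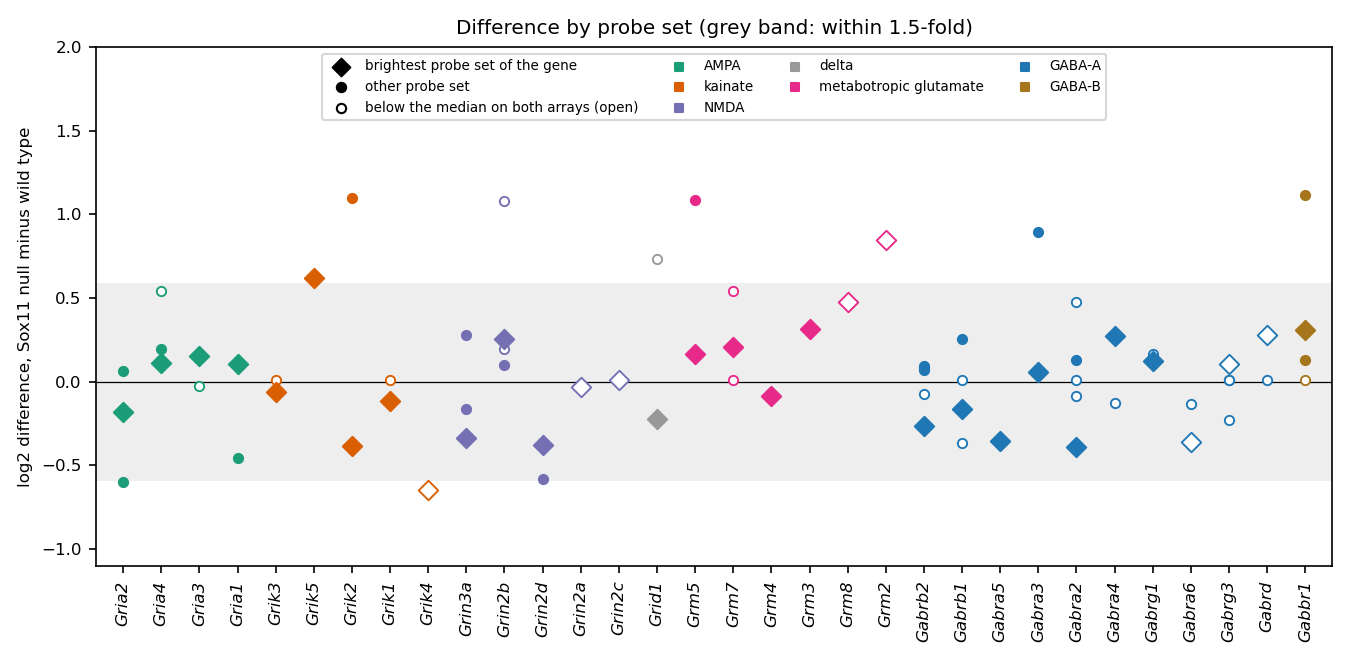
Log2 difference (Sox11 null minus wild type, vertical axis) of each of the 73 probe sets by gene. Diamonds are the brightest probe set of a gene, circles the others, open symbols were below the median on both arrays, and the grey band is the range within 1.5-fold. Grik5 has the only filled diamond outside the band, while other measured probe sets of Grik2, Grm5, Gabra3 and Gabbr1 lie above it. A measured probe set of Gria2 lies just below it. Open symbols outside the band belong to Grin2b, Grid1 and Grm2 (above) and to Grik4 (below).

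Metabotropic glutamate receptors modulate neurons through G proteins. Grm5, a group I receptor of neurons and glia known for high fetal levels, had the highest signal of the class, at 1188 and 1312 (0.16). Grm7, a presynaptic receptor, read 600 and 684 (0.21). Grm3, present in glia and neurons, read 375 and 460 (0.31), and Grm4, a presynaptic receptor best known from the cerebellum, read 416 and 388 (-0.083). Grm3 and Grm4 exchanged places between the arrays.

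The class median was 0.19 over 4 measured genes, of which 3 were above 0. Grm8 (112 and 153, 0.48) and Grm2 (66.7 and 118, 0.85) were below the median on both arrays and are not counted. The second probe set of Grm5, 1456119_at, read 130 and 273 (1.09), and it reached the median in the null library alone. Averaged over its 2 measured probe sets, Grm5 was at 0.62 ± 0.65 (SD between its probe sets, which share 1 RNA). Its difference therefore depended on the probe set, and Grm5 was beyond 1.5-fold when probe sets were averaged (0.59 over all of them, and 0.60 in the fit recentred on means of measured probe sets).

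GABA-A receptors had 7 measured genes of 10. The beta subunit genes Gabrb2 and Gabrb1 had the highest signals. Gabrb2 read 1154 on the wild-type array and 946 on the null array, and Gabrb1 read 993 and 877. Among the alpha subunits, which set the response to GABA and to benzodiazepines, Gabra5 read 919 and 708, Gabra3 read 559 and 574, Gabra2 read 528 and 397, and Gabra4 read 284 and 338. The gamma subunit gene Gabrg1 read 276 and 297. All 7 kept their place between the arrays.

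Gabra6, known from cerebellar granule cells, was below the median on both arrays at 86.2 and 66.2, beside hindbrain and cerebellar markers of which 2 of 7 were above it. Gabrg3 (70.6 and 74.9) and Gabrd (39.8 and 63.4) were also below it. Gabrd encodes a subunit of receptors outside the synapse that is known to rise after birth. Gabrd was under the floor in wild type.

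All measured GABA-A genes lay within 1.5-fold, with a class median of -0.16. With all probe sets averaged it was 0.036, over the 5 genes measured in that setting, and with measured ones averaged 0.018. Gabra2 (-0.39), Gabra5 (-0.36), Gabrb2 (-0.27) and Gabrb1 (-0.16) were below 0. Gabra4 (0.27), Gabrg1 (0.13) and Gabra3 (0.059) were above it. Gabra5, a subunit known for high levels in the fetal forebrain and the hippocampus, has 1 probe set. In Gabrb2 the brightest probe set was negative and the 3 other measured probe sets were positive (0.094, 0.079 and 0.069), with a mean of -0.0064 ± 0.17 (SD between its 4 measured probe sets). One of these, 1428205_x_at, is of a type whose probes can also match other transcripts. In Gabra2 1443865_at gave 0.13, and in Gabrb1 1435095_at gave 0.25. Among measured probe sets, the lower values of these 3 genes thus belonged to the brightest alone.

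The second probe set of the X-linked Gabra3, 1421263_at, read 119 and 218 (0.89), beside 0.059 for the brightest. It reached the array median in the null library alone. Gabra2, Gabra4, Gabrb1 and Gabrg1 belong to 1 gene cluster on chromosome 5. Gabrg1 and Gabra2 are immediate neighbours there, as are Gabra4 and Gabrb1, in the RefSeq order of protein-coding genes (GRCm38.p6). By their brightest probe sets the members of this cluster differed in direction, with -0.39, 0.27, -0.16 and 0.13 in the order named. The other measured probe sets of Gabra2 (0.13) and Gabrb1 (0.25) were positive, so this depended on the probe set. Gabra5 and Gabrg3 are neighbours on chromosome 7, and Gabra6 and Gabrb2 on chromosome 11, and 1 gene of each pair was measured.

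GABA-B receptors need the products of both Gabbr1 and Gabbr2, and values exist here for Gabbr1 alone. It had the highest signal of all 32 genes, at 3249 on the wild-type array and 3969 on the null array (0.31, 1.24-fold higher). Its 3 measured probe sets were all positive. The probe set 1437188_at read 606 and 655 (0.13), and 1422051_a_at, of the type that covers several transcripts of 1 gene, read 349 and 745 (1.12, 2.17-fold higher). The mean was 0.52 ± 0.52 (SD between its 3 measured probe sets). Unlike the second probe sets of Grik2, Grm5 and Gabra3, 1422051_a_at was above the median on both arrays.

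**Figure D3:**
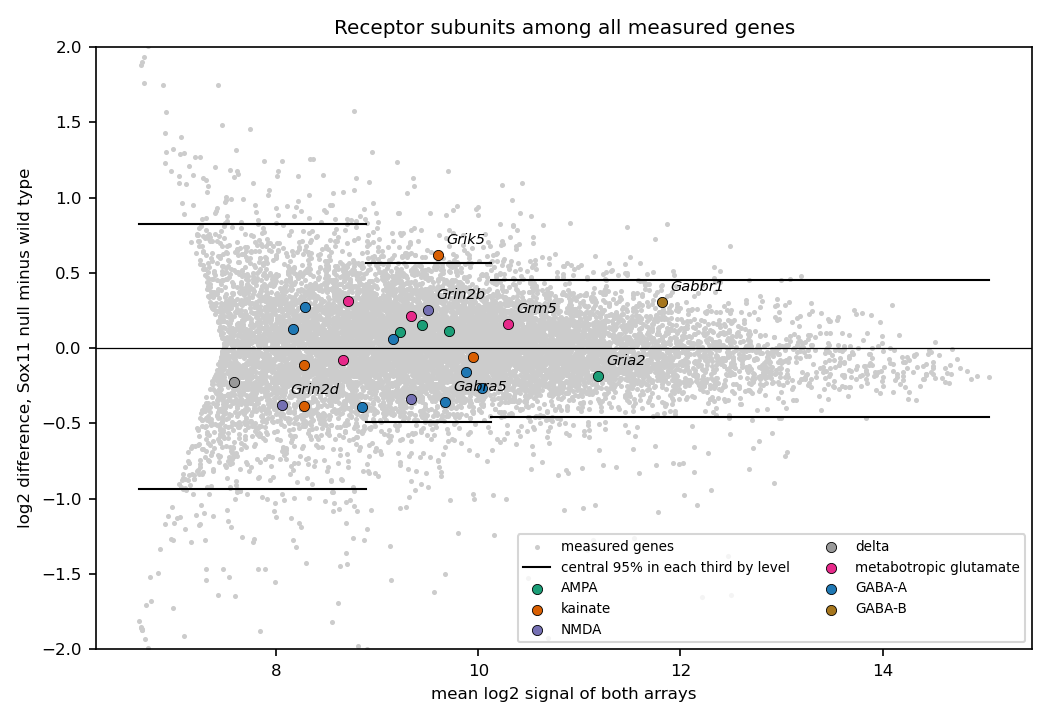
Log2 difference (Sox11 null minus wild type) against mean log2 signal of both arrays for the 12390 measured genes (grey) and the 24 measured subunits (coloured by class). Black lines mark the central 95% of differences in each of the 3 level groups, and 27 genes lie beyond the vertical axis. Grik5 is the only subunit outside the lines, and Gabbr1 and Gria2 have the highest signals.

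Counted by probe set, differences were wider and mostly upward. Of the 42 measured probe sets of the subunits 5 were at least 1.5-fold higher in the null library and 1 was lower, against 7.26% and 3.48% of all measured probe sets. The 5 were those of Grik5, Grik2, Grm5, Gabra3 and Gabbr1, and the lower one was 1453098_at of Gria2. Of the 18 measured subunit probe sets that were not the brightest of their gene, 4 were higher and 1 was lower, against 13.5% and 3.8% of such probe sets over all genes. Because 3 of the 4 passed the signal limit through the null array alone, probe sets were also selected by the mean of both arrays. Of the 16 subunit probe sets that were not the brightest of their gene and passed this limit, 2 were higher, those of Grm5 and Gabbr1, and 1 was lower, that of Gria2. Over all genes 11.3% of such probe sets were higher and 2.83% lower, whereas brightest probe sets gave 2.5% and 2.46%. An excess of higher signals on dimmer probe sets was thus present across the whole array. Beside this stand the 3' to 5' ratios of the control probe sets, 1.78 and 1.16 for beta-actin and 0.922 and 0.816 for Gapdh, whose part was not tested. Among the 13 subunit genes with several measured probe sets, all probe sets shared 1 sign in 6, against 43.2% of 5155 genes.

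The order of subunits by signal compares the same probe sets on both arrays, so their brightness enters it on each. Of 25 pairs of neighbours in the wild-type order of a class, 20 kept their order in the null library, and 17 did with all probe sets of each gene averaged. The 5 that did not were Grik2 and Grik1, Grin3a and Grin2b, Grin2a and Grin2c, Grm4 and Grm3, and Gabra6 and Gabrg3. Grin2a and Grin2c, which enter these 5 pairs, were under the floor on at least 1 array. So was Gabrd, whose pair with Gabrg3 kept its order. Many gaps were small beside the pooled SD of differences among probe sets of 1 gene (0.39). In 9 of the 25 pairs the gap in the wild-type order exceeded this SD on both arrays. Grik3 and Grik5, which kept their order, were 0.0064 apart on the log2 scale in the null library.

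The genes that anchor, assist or supply these receptors were read in 7 lists with 62 genes, of which 46 were measured. With the brightest probe set of each gene, 0 were beyond 1.5-fold in either direction, and the median was 0.13. The share of all measured genes beyond 1.5-fold was 6.3%. With all probe sets averaged, 1 gene was beyond 1.5-fold in each of 4 lists. These were auxiliary subunits (10 measured), excitatory scaffold (12), glutamate supply (4) and chloride transporters (2). Over all measured genes 4.9% were then higher and 3.87% lower. With no signal limit 1 of 13 auxiliary subunits was beyond 1.5-fold, against 3.97% of all genes higher and 4.38% lower. Other measured probe sets of Dlg4 (1.19), Slc1a3 (up to 1.01), Slc17a6 (0.95), Gphn (up to 0.60) and Dlg1 (0.60) were at least 1.5-fold higher. These genes are named here after their values were seen. The other measured probe sets of Slc1a3 ran from 0.0025 to 1.01, and those of Gphn from -0.18 to 0.60. Over all genes, 13.5% of measured probe sets other than the brightest were at least 1.5-fold higher and 3.8% lower. Among the 11 measured auxiliary subunits of AMPA and kainate receptors, which steer receptor gating and traffic, 10 were above 0 and the median was 0.29 (0 over all measured genes), or 0.11 with measured probe sets averaged. The brightest were Neto2 (1135 and 1278, 0.19) and Cnih2 (977 and 873, -0.14). Of 14 excitatory scaffold genes 7 were above 0, with Dlgap4 (1704 and 1424) at -0.24 and Dlg1 (1570 and 1555) at 0.01. Among 6 inhibitory scaffold and GABA-B auxiliary genes the median was 0.054, with Gabarap (6714 and 6066) at -0.13 and Gphn, which encodes the scaffold protein gephyrin (1571 and 1723), at 0.15.

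Of 5 measured glutamate supply genes 4 were above 0 (median 0.15, or 0.48 over the 4 genes measured with all probe sets averaged). The glutamine synthetase gene Glul (8081 and 7058) was at -0.18 and the vesicular transporter gene Slc17a6 (1651 and 1802) at 0.15. Of 6 GABA genes 4 were above 0. Their median was 0.31, but 0.10 over the 4 genes measured with all probe sets averaged. It was -0.029 over the 3 genes left with the limit at the 75th percentile. The list held the GABA-synthesising enzyme gene Gad1 (2202 and 2686) at 0.31 and Abat, which encodes a GABA-degrading enzyme (773 and 745), at -0.03. The chloride importer gene Slc12a2 (3262 and 3714) was at 0.21, with another probe set at 0.58, and the chloride exporter gene Slc12a5 (1107 and 1281), whose balance sets the sign of the response to GABA, at 0.23. The median of these 2 genes was 0.22, or 0.49 with all probe sets averaged. The glycine receptor genes Glrb (2797 and 2456) and Glra2 (1003 and 907) were at -0.17 and -0.12.

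**Figure D4:**
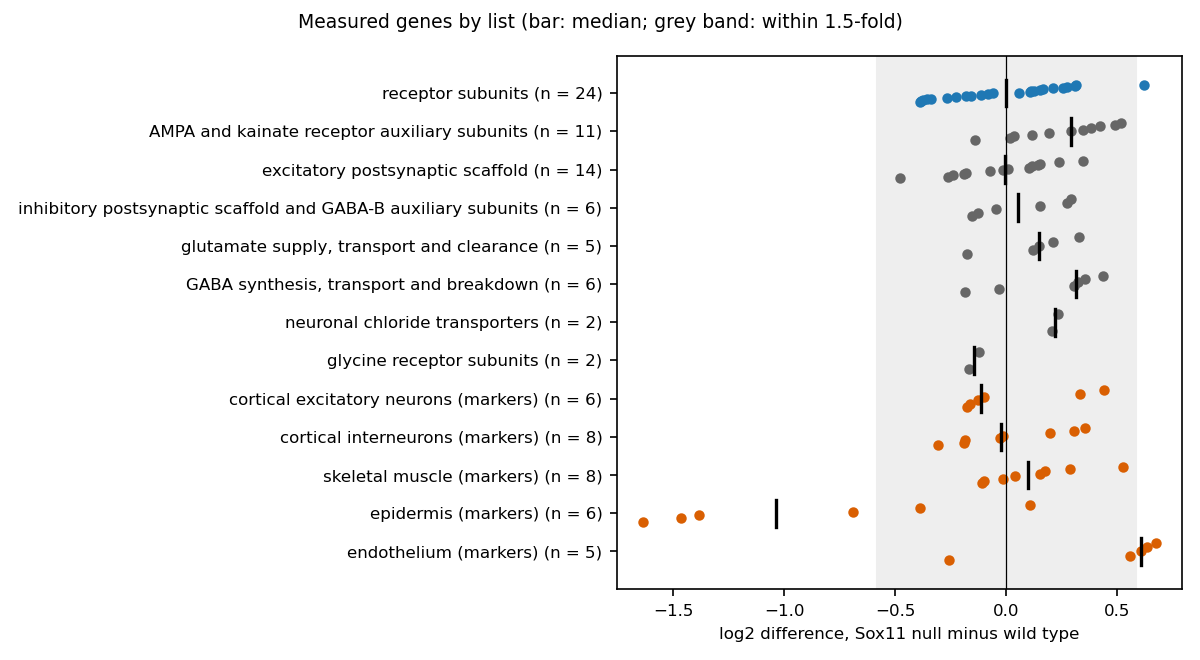
Log2 difference (Sox11 null minus wild type, horizontal axis) of the measured genes of the receptor subunits (blue), of the 7 related lists (grey) and of 5 marker lists (orange). Points are genes, black bars medians, and the grey band is the range within 1.5-fold. With brightest probe sets the related lists lie inside the band, while epidermal markers extend below it and endothelial markers above it.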

How the data were processed

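Per the file, the deposited values are linear intensities, 1 for each probe set on each array. The submitters' processing notes name Affymetrix Expression Console. The sources used here give neither the summary algorithm nor a genome build. After trimming 2% at each end, the deposited intensities of both arrays had a mean of 500.002, as scaling by 1 factor gives. Such scaling leaves trends with signal level in place.

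Of 45101 probe sets, 64 controls were left out, 34945 name 1 gene, 932 name several and 9160 are unnamed here. Symbols of 34741 were updated by gene number through RefSeq (GRCm38.p6). Each gene was represented by its brightest probe set. The null array was shifted by 0.020 on the log2 scale, so that the median difference of measured genes was 0. Limits of level, floor and size (1.5-fold) are given with the results. No detection call was used. The members and lists were chosen with earlier results of these data known. All 32 subunit genes with a probe set are named. Of each related list, genes beyond 1.5-fold or else the 2 brightest are named. The procedure was tested on simulated data, with planted differences larger than any subunit difference given here and alike on all probe sets of a gene. That test does not cover differences near 1.5-fold or probe sets that disagree. Alternatives covered centring, quantile and loess normalization, floor, signal limit and choice of probe sets (Python 3.11.15, statsmodels 0.14.6).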

Additional observations from a re-analysis of the deposited data

How the results depend on the processing

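With 1 array per genotype no replicate could be left out. No paired analysis was possible because each genotype has 1 sample and no test was run. Under 11 alternative settings, 2 of them added after the data were seen (means over measured probe sets, and a limit on the mean of both arrays), 16 of 24 measured subunits kept their sign. The 1 subunit at least 1.5-fold higher became 0 of 24 after quantile normalization (2.49% of all measured genes) and 0 of 24 after removal of a loess trend (2.57%). With no signal limit 2 of 32 were higher (Grik5 and Grm2, against 3.97%) and 1 was lower (Grik4, against 4.38%). With all probe sets averaged 2 of 18 were higher (Grin2b and Grm5, against 4.9%). With measured probe sets averaged 2 of 24 were (Grik5 and Grm5, against 3.32%). The median of all subunits was 0.11 with the limit at the 75th percentile. The class medians that moved were, with all probe sets averaged, AMPA (-0.092, 4 genes), kainate (0.45, 2 genes), NMDA (-0.11, 3 genes) and GABA-A (0.036, 5 genes). The genes measured in that setting thus differed in part from those of the main setting. With the limit at the 75th percentile kainate was at 0.28 and NMDA at -0.039, over 2 genes each, and with no limit NMDA was at -0.029 over 5 genes. With measured probe sets averaged, kainate was at 0.12, NMDA at -0.10 and GABA-A at 0.018. The delta subunit gene had no value with the limit at the 75th percentile or with all probe sets averaged, since it was not measured there. The cause of the shifts was not tested. The other 75 values of the overall and class medians moved by less than the pooled SD of probe sets of 1 gene (0.39) over the square root of the number of genes. Of the medians of the related lists 5 moved further and 72 did not, and of their counts beyond 1.5-fold 6 moved and 71 did not. Low signal limits what can be said of the 8 subunits below the array median.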

Other observations

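Subunit genes of the same families outside the list, chosen after their values were seen, were dim (wild type first, then null). Gabre (108 and 110), Gabrr2 (100.2 and 80.2), Gabrq (48.6 and 63.5), Gabrr1 (14.1 and 68.6) and Grin3b (107 and 36.9) were all below the array median in both libraries. The probe set that names both Grm2 and Gm28111 read 164 and 175 (log2 difference 0.11), and the one that names both Gabrg3 and 6330406O05Rik read 64.5 and 66.3 (0.06).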
